A study of Mus musculus with 12 samples.

Results

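The comparison described here is the effect of the progeria knock-in on the liver transcriptome of male mice fed a control diet. It rests on 6 of 12 arrays, 3 of Lmna G609G/G609G knock-in livers (KI_CD) and 3 of wild-type livers (WT_CD), chosen by genotype and diet from the labels. All mice were males on a C57BL/6N background from crosses of heterozygous parents, were housed by genotype, began their diet at 7 weeks of age and were killed at 110 days after 6 hours of fasting. Because housing followed genotype, an effect of cage and an effect of the knock-in cannot be told apart here. The knock-in effect below therefore names the difference between the groups. The other 6 arrays came from knock-in (KI_MR) and wild-type (WT_MR) mice on a methionine-restricted diet, 3 each, and were used for the common estimate of spread and to set the knock-in effect on the other diet beside that on the control diet. The knock-in is germline and homozygous, so every cell type of the liver carries it. Transcript levels in total RNA were read on the Affymetrix Mouse Gene 1.0 ST array. Whether each array stands for a mouse of its own is not in the labels, so the p-values measure only the spread between these samples, which may be technical.

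The G609G change in Lmna opens a cryptic splice site, and the shortened lamin A that results, progerin, keeps a farnesyl anchor that is normally removed by the protease Zmpste24. Progerin distorts the nuclear lamina, and mice that make it grow poorly and age early. In liver, much of the difference between males and females is set by growth hormone: pulses of the hormone in males drive the transcription factor STAT5B on and off, which keeps male-biased genes on, while BCL6 holds female-biased genes down in males and CUX2 does the converse in females.

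Levels are given as log2 of the deposited intensity, which ran from 10 to 20042 units with array medians of 82 to 90. Differences are knock-in minus wild type on that scale, with their standard error (SE), from a limma fit to 19938 genes, each represented by 1 probe set. Adjusted p-values are limma's with Benjamini-Hochberg adjustment over all 19938 genes, and a gene is said to have risen or fallen where it is under 0.05. Over all genes the median difference was -0.025, and 42.8% of genes lay above 0. The 9 measured hepatocyte markers had a median level of 13.45 against 6.82 over all genes, so the markers of the labelled tissue were present. Probe sets differ in how well they hybridise, so levels are set side by side only within a gene.

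One knock-in array stood apart. KI_CD replicate 1 correlated with the other arrays of its group at a mean r of 0.986, against 0.989 to 0.994 for the other 11 arrays, a correlation across genes. In it 112 genes lay more than 1 log2 unit from the mean of their group, against 7 to 81 genes on the others. Its summed cholangiocyte marker intensity was the highest of the 6 arrays, since the range over the 7 measured markers was 463 to 1289 units in KI_CD and 474 to 567 units in WT_CD. On some gene lists this array lay at the level of the restricted-diet knock-in arrays. The male-biased list's median, measured from the WT_CD mean, was -2.29 on it. It was -1.17 and -1.06 on the other KI_CD arrays, and -2.36, -2.25 and -2.48 in KI_MR. The amino acid response list had 0.82 on it and 0.63, 0.53 and 0.99 in KI_MR. The cell cycle list went otherwise, with 0.50 on it and -0.15, -0.08 and -0.29 in KI_MR. The reason was not tested. Where leaving out KI_CD replicate 1 moved a difference or median given below by over 1.5 times, the value without it stands beside it.

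Other marker lists differed between the groups too. The 12 markers of Kupffer cells and macrophages summed to 7023 to 8894 units in KI_CD livers and 8940 to 11025 units in WT_CD livers, with 9 of 12 below 0 and none past the threshold. All 9 measured T cell markers were below 0, but their sums overlapped, at 588 to 644 units in KI_CD and 630 to 723 units in WT_CD. These markers were dim, with a median level of 5.92, and their median difference was -0.104. The lower quartile over all genes was 5.52, 5.55 and 5.49 in KI_CD and 5.64, 5.61 and 5.55 in WT_CD. The 5 measured erythroid markers summed to 752 to 966 units in KI_CD and 1444 to 1647 units in WT_CD, a gap carried by Alas2, the erythroid enzyme that starts heme synthesis, with 8.70, 8.81 and 9.22 in KI_CD livers against 10.30, 10.04 and 10.10 in WT_CD livers (difference -1.24 ± 0.31 SE, adjusted p = 0.18). Hepatocyte markers summed to 104016 to 107346 units in KI_CD and 96192 to 101255 units in WT_CD. No marker list had a member at 0, since the lowest deposited value was 10 units. In whole liver, fewer cells of a type and less RNA per cell cannot be told apart, and the part of these shifts in the results was not tested.

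In knock-in livers 16 genes changed on the control diet, 12 higher and 4 lower, which is 0.0802% of the genes tested, 0.0602% for higher and 0.0201% for lower. Several of the 16 are known for sex-biased expression in mouse liver. The female-biased cytochrome P450 Cyp2b9 and the transporter Slco1a4 were higher, and the male-biased Cyp4a12a, Cyp4a12b and Elovl3 were lower. A larger set, the 16 among them, separated the groups. It held 3790 genes with no overlap between the 3 knock-in and 3 wild-type arrays, 19.0% of all genes. Of these 1708 were higher (8.57% of all genes) and 2082 lower (10.4%). With 3 arrays a group some genes separate by chance alone, so this share does not count changed genes. At an unadjusted p under 0.05 there were 2234 genes. The calls rest on a spread estimated from all 12 arrays: a fit of only the 6 compared arrays called 0 genes by limma, with 2734 at an unadjusted p under 0.05, and array weights called 168. Outside these genes, 9 of 13723 probe sets with no symbol or several passed in a fit of their own (0.0656%). Leaving out WT_CD replicate 1 left 2 called genes in place of 16, and leaving out KI_CD replicate 1 gave 32.

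**Figure D1:**
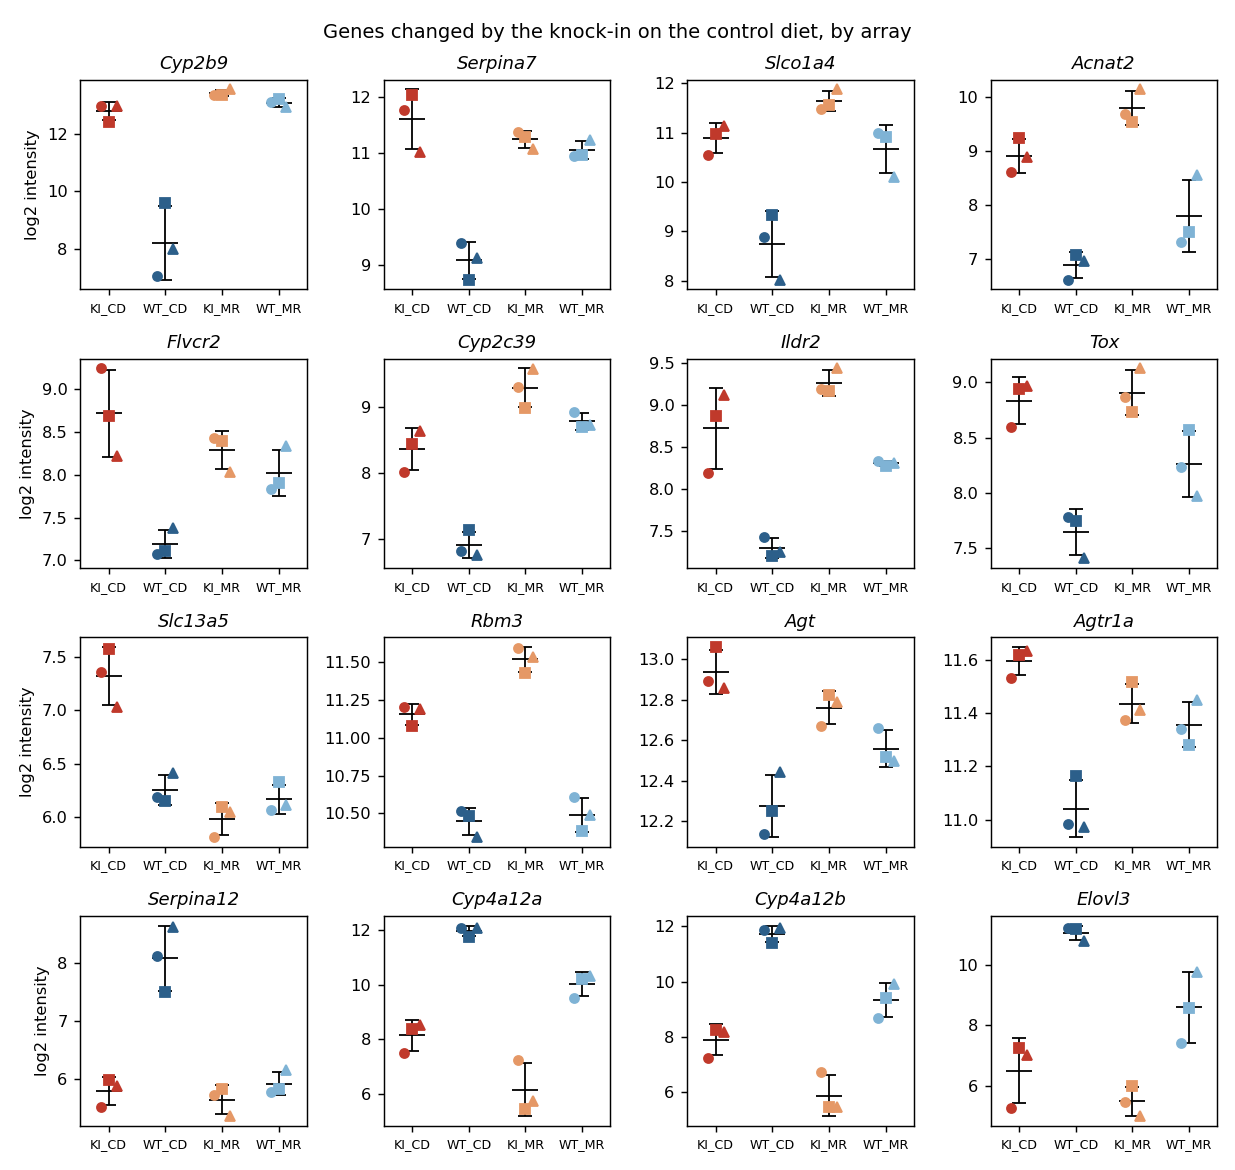
Log2 intensity of the 16 changed genes on every array, by group (KI_CD, WT_CD, KI_MR, WT_MR). Circles, squares and triangles are replicates 1, 2 and 3, and black bars are the group mean ± SD (n = 3). In each panel the KI_CD and WT_CD points do not overlap, for example 12.43 to 12.98 against 7.03 to 9.58 for Cyp2b9.

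Cyp2b9, a cytochrome P450 that is normally far more abundant in female than in male mouse liver, showed the largest difference. Its levels were 12.98, 12.43 and 12.97 in KI_CD livers and 7.03, 9.58 and 7.99 in WT_CD livers. Every knock-in array exceeded every wild-type array by a wide margin, and the wild-type arrays varied far more among themselves than the knock-in arrays did. The difference was 4.59 ± 0.47 (SE, adjusted p = 0.00653), a 24.1-fold higher level. With 1 array left out it ranged from 4.00 to 5.28 and passed in all 12 cases. Cyp2b9 has close relatives, and its near neighbour Cyp2b13 is also female-biased. Cyp2b13 reached 7.58, 5.39 and 6.41 in KI_CD livers and 4.91, 5.29 and 4.81 in WT_CD livers (difference 1.46 ± 0.54, adjusted p = 0.36, or 0.90 without KI_CD replicate 1). With the wild-type arrays at their lower quartile and the knock-in arrays as measured, its mean was 1.81-fold higher, though KI_CD replicate 2 lay below its own lower quartile of 5.55. How far such near-identical genes share signal on the array is uncertain. The other 3 measured Cyp2b genes had differences of 0.08 or more, none past the threshold, and Cyp2b10, the member best known for induction by the receptor CAR, had a difference of 0.20 ± 0.17 (0.05 without KI_CD replicate 1).

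Slco1a4 encodes an uptake transporter for organic anions and bile acids, and is female-biased in mouse liver. It reached 10.55, 10.96 and 11.14 in KI_CD livers and 8.88, 9.34 and 8.02 in WT_CD livers, a difference of 2.13 ± 0.32 (SE, adjusted p = 0.0393). The groups were apart by more than 1 log2 unit, but the adjusted p was 0.0629 to 0.183 when any of 9 arrays was left out (KI_CD replicates 2 and 3, WT_CD replicates 1 and 3, all KI_MR replicates, WT_MR replicates 1 and 2). Its relative Slco1a1, which is male-biased, moved the other way, with 6.30, 11.19 and 11.11 in KI_CD livers and 12.15, 12.20 and 12.17 in WT_CD livers. That difference, -2.64 ± 1.06 (adjusted p = 0.40), came mostly from KI_CD replicate 1 and was -1.02 without it. Of 16 organic anion and bile acid transporters, 1 rose and none fell, and 7 of 16 lay above 0. Among the others Abcg2, an exporter of drugs and urate, had 7.57, 8.14 and 8.13 in KI_CD livers and 8.98, 8.59 and 9.16 in WT_CD livers (difference -0.96 ± 0.20, adjusted p = 0.11).

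The strongest decreases were in fatty acid genes that male mouse liver expresses at a high level. Elovl3, an elongase of very long chain fatty acids, had 5.25, 7.23 and 7.00 in KI_CD livers and 11.21, 11.17 and 10.79 in WT_CD livers. The lowest wild-type array was above the highest knock-in array by more than 3 log2 units, and KI_CD replicate 1 was the lowest of all. Elovl3 fell by 4.56 on the log2 scale (SE 0.59, adjusted p = 0.0176), a 23.6-fold lower level, and the difference was -3.94 without KI_CD replicate 1. The omega-hydroxylases Cyp4a12a and Cyp4a12b, which are nearly identical in sequence so that 1 may report on the other, had similar values. Cyp4a12a had 7.51, 8.38 and 8.54 in KI_CD livers and 12.07, 11.73 and 12.05 in WT_CD livers (difference -3.81 ± 0.42, adjusted p = 0.00722), and Cyp4a12b had 7.25, 8.24 and 8.20 in KI_CD livers and 11.85, 11.40 and 11.93 in WT_CD livers (difference -3.83 ± 0.40, adjusted p = 0.00653). They were 14.1-fold and 14.3-fold lower. Without WT_CD replicate 1 the adjusted p was 0.113 for Elovl3, 0.0618 for Cyp4a12a and 0.0534 for Cyp4a12b, and without WT_CD replicate 2 it was 0.0652 for Elovl3.

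**Figure D2:**
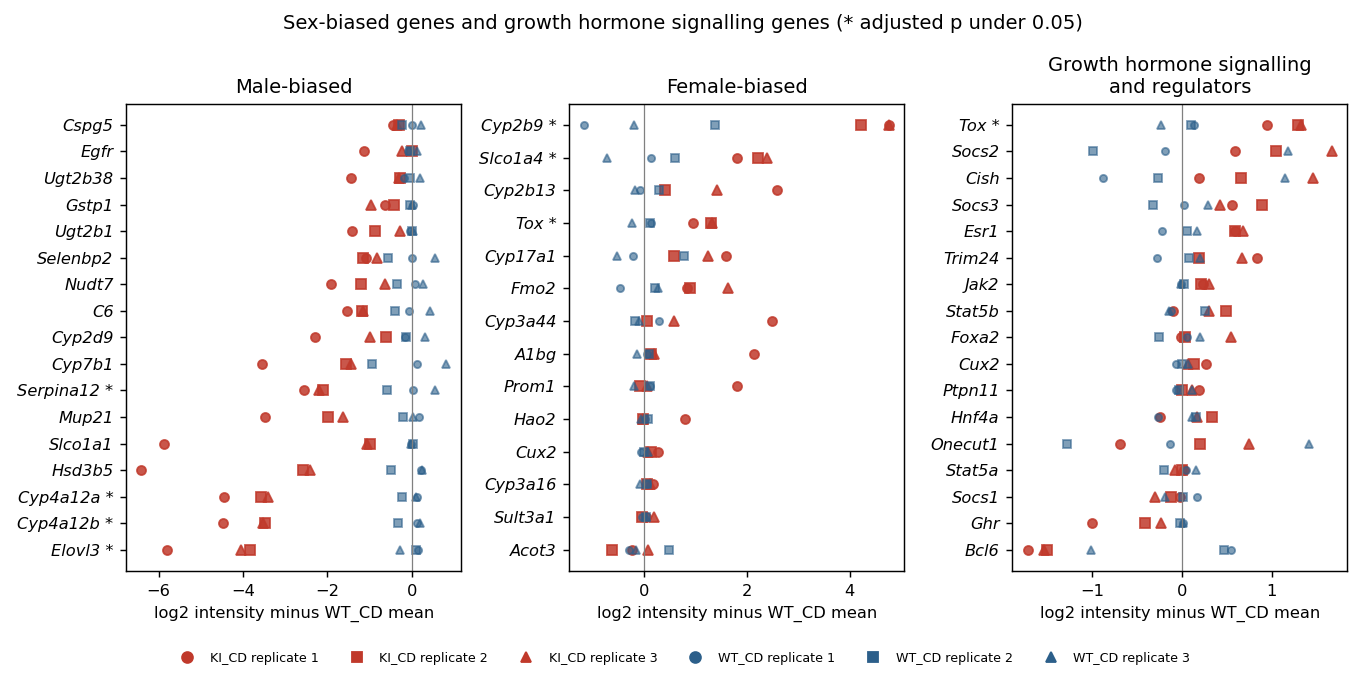
Log2 intensity minus the WT_CD mean (x axis) on each KI_CD (red) and WT_CD (blue) array, for the measured members of the male-biased, female-biased and growth hormone signalling lists. Symbols are replicates 1 (circle), 2 (square) and 3 (triangle), and asterisks mark an adjusted p under 0.05. All 17 male-biased genes have a mean below 0, 13 of 14 female-biased genes have a mean above 0, and KI_CD replicate 1 (red circle) lies at the extreme for many of them.

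All 17 measured male-biased genes had a difference below 0, with a median of -1.30 against -0.025 over all genes. Of the 17, 4 fell (Cyp4a12a, Cyp4a12b, Elovl3 and Serpina12), and 16 had no overlap between groups, set against 10.4% of all genes that were lower without overlap. The median was -1.02 without KI_CD replicate 1. On each array the list's median sat at -2.29, -1.17 and -1.06 in KI_CD and 0.02, -0.22 and 0.20 in WT_CD, measured from the WT_CD mean. Hsd3b5, a male-specific 3-ketosteroid reductase, had 5.58, 9.43 and 9.58 in KI_CD livers and 12.22, 11.52 and 12.25 in WT_CD livers (difference -3.80 ± 0.83, adjusted p = 0.13; -2.49 without KI_CD replicate 1). Cyp2d9, a male-biased testosterone hydroxylase, and Gstp1, a glutathione transferase, had differences of -1.30 ± 0.34 (-0.80 without KI_CD replicate 1) and -0.67 ± 0.16, and both missed the threshold.

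Of 14 measured female-biased genes, 13 had a difference above 0 with a median of 0.93, 3 rose (Cyp2b9, Slco1a4 and Tox), and 6 had no overlap between groups, where 8.57% of all genes were higher without overlap. This median rested on KI_CD replicate 1: it was 0.238 without it, and on single arrays it was 1.26, 0.13 and 0.39 in KI_CD and -0.02, 0.10 and -0.16 in WT_CD. Tox, an HMG-box transcription factor, had 8.59, 8.94 and 8.97 in KI_CD livers and 7.78, 7.75 and 7.41 in WT_CD livers. It rose by 1.19 ± 0.17 (adjusted p = 0.0308), with an adjusted p of 0.0642 to 0.113 when KI_CD replicate 2 or 3, any WT_CD replicate, KI_MR replicate 1 or WT_MR replicate 1 was left out. Fmo2, a flavin monooxygenase, had 8.43, 8.48 and 9.22 in KI_CD livers and 7.12, 7.80 and 7.84 in WT_CD livers (difference 1.12 ± 0.36, adjusted p = 0.29). Cyp17a1 and Cyp3a44 differed by 1.13 ± 0.40 and 1.04 ± 0.49 (0.31 without KI_CD replicate 1), and neither passed. Prom1, which the cholangiocyte list also holds, had 7.56, 5.67 and 5.81 in KI_CD livers and 5.86, 5.86 and 5.55 in WT_CD livers, a difference of 0.59 ± 0.44 that was -0.02 without KI_CD replicate 1.

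The growth hormone signalling list, which holds regulators of this programme, had members on both sides of 0, 13 above and 4 below. Bcl6, the repressor of female-biased genes, had 7.39, 7.61 and 7.58 in KI_CD livers and 9.66, 9.57 and 8.10 in WT_CD livers. All knock-in arrays lay below all wild-type arrays, but WT_CD replicate 3 was near the knock-in level, and the difference of -1.58 ± 0.62 did not pass (adjusted p = 0.39). Ghr, the growth hormone receptor, had 11.39, 11.99 and 12.16 in KI_CD livers and 12.41, 12.38 and 12.41 in WT_CD livers (difference -0.55 ± 0.16, adjusted p = 0.25; -0.32 without KI_CD replicate 1), and Esr1, the estrogen receptor, had 8.67, 8.67 and 8.76 in KI_CD livers and 7.85, 8.13 and 8.25 in WT_CD livers (difference 0.62 ± 0.16, adjusted p = 0.20). Stat5b, Cux2 and Igf1, the growth hormone target that circulates as IGF-1, differed by 0.23 ± 0.17, 0.15 ± 0.15 and -0.03 ± 0.10. Without KI_CD replicate 1 these were 0.39, 0.10 and 0.04. Of 17 measured members of the growth hormone signalling list, 1 rose (Tox) and none fell. The list's median was 0.19 (0.29 without KI_CD replicate 1). Its members Socs2 and Cish differed by 1.10 and 0.77 (1.36 and 1.06 without KI_CD replicate 1), and neither passed. Of the 12 genes of the IGF axis none passed, and Igfbp1, the fasting-responsive binding protein, had 12.51, 11.49 and 10.09 in KI_CD livers and 9.95, 10.28 and 9.76 in WT_CD livers (difference 1.37 ± 0.52, adjusted p = 0.38; 0.79 without KI_CD replicate 1).

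Both members of the serpin A family that changed encode secreted proteins. Serpina7, thyroxine-binding globulin, reached 11.76, 12.04 and 11.02 in KI_CD livers and 9.38, 8.73 and 9.12 in WT_CD livers. The ranges were separate by more than 1.5 log2 units, and Serpina7 rose by 2.53 ± 0.24 (SE, adjusted p = 0.00634, 5.78-fold). It passed with each of the 12 arrays left out, at 2.31 to 2.83. Serpina12, the adipokine vaspin, which is also male-biased in mouse liver, had 5.52, 5.98 and 5.88 in KI_CD livers and 8.12, 7.50 and 8.63 in WT_CD livers. It fell by 2.29 on the log2 scale (SE 0.24, adjusted p = 0.00653, 4.89-fold), with an adjusted p of 0.0534 without WT_CD replicate 1. Of 13 measured Serpina genes these were the only ones past the threshold, and the family's median was -0.021 (0.037 without KI_CD replicate 1). Of 16 thyroid hormone genes, 1 rose (Serpina7) and none fell, while Dio1, the deiodinase that is a classical target of the hormone in liver, had 7.19, 9.31 and 9.24 in KI_CD livers and 10.12, 9.71 and 10.70 in WT_CD livers (difference -1.60 ± 0.56, adjusted p = 0.34; -0.91 without KI_CD replicate 1).

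In the renin-angiotensin system the circulating precursor and the type 1a receptor both rose. Agt, angiotensinogen, had 12.89, 13.06 and 12.86 in KI_CD livers and 12.14, 12.25 and 12.44 in WT_CD livers, a rise of 0.66 ± 0.09 (SE, adjusted p = 0.0296). Agtr1a, the type 1a angiotensin II receptor, had 11.53, 11.62 and 11.63 in KI_CD livers and 10.98, 11.16 and 10.97 in WT_CD livers, a rise of 0.55 ± 0.08 (SE, adjusted p = 0.0263). These are small changes, 1.58-fold and 1.47-fold, and neither gene's groups overlapped. The other 10 measured members missed the threshold, and Mme, the peptidase neprilysin, had 7.97, 7.77 and 8.36 in KI_CD livers and 9.17, 8.89 and 8.74 in WT_CD livers (difference -0.90 ± 0.17, adjusted p = 0.088). Both calls were lost when any of 6 single arrays was left out. The adjusted p of Agt was then 0.0511 to 0.171 (KI_CD replicates 2 and 3, WT_CD replicates 1 and 2, KI_MR replicates 1 and 2), and that of Agtr1a 0.0517 to 0.171 (KI_CD replicates 2 and 3, WT_CD replicates 1 and 3, KI_MR replicate 1, WT_MR replicate 1).

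The promoters of genes from these groups are shown as the 250 bases before the transcription start in RefSeq on build GRCm38.p6: Cyp2b9 (chr7:26173159-26173408, + strand), Serpina12 (chr12:104044444-104044693, - strand) and Agt (chr8:124569707-124569956, - strand). They were picked as the largest increase, a decrease and the one window that holds a STAT motif, whose letters are in capitals.
Cyp2b9: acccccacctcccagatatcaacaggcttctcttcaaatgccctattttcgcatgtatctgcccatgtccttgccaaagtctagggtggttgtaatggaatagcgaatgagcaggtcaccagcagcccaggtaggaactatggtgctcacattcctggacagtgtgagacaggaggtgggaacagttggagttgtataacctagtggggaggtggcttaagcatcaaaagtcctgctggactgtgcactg
Serpina12: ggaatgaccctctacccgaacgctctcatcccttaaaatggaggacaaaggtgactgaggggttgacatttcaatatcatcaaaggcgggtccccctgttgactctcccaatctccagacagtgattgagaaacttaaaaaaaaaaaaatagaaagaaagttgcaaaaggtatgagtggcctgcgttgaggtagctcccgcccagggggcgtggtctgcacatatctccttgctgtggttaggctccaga
Agt: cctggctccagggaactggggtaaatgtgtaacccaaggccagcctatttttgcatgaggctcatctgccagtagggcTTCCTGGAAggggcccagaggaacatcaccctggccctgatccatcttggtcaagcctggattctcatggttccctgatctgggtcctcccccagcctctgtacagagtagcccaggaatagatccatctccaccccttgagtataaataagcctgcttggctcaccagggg
The motif searched was TTCNNNGAA on both strands, the general form that STAT factors recognise. It was found in Agt at position -172 from the start, and in no other of the 10 changed genes with an entry (14 windows), while 7.01% of all 32817 windows of this length hold it. The core ATCAAT, bound by HNF6 and CUX2, was in 0 of the 10 and in 6.73% of all windows. A match is a description of the sequence, not a binding site, and its absence says only that these letters are not in this window.

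The other 6 genes that rose were Acnat2, Slc13a5, Flvcr2, Cyp2c39, Ildr2 and Rbm3. Acnat2, a peroxisomal acyltransferase that conjugates fatty acids to amino acids, had 8.62, 9.24 and 8.88 in KI_CD livers and 6.62, 7.07 and 6.97 in WT_CD livers (2.03 ± 0.29 SE, adjusted p = 0.0341). Its family did not share the direction, because Keg1, a glycine acyltransferase, had 9.23, 10.38 and 10.44 in KI_CD livers and 11.92, 11.23 and 12.06 in WT_CD livers (-1.72 ± 0.36 SE, adjusted p = 0.12), and 5 of 7 measured members lay below 0. Slc13a5, the citrate importer of the hepatocyte membrane, had 7.36, 7.58 and 7.03 in KI_CD livers and 6.19, 6.15 and 6.41 in WT_CD livers (1.07 ± 0.14 SE, adjusted p = 0.0176). Flvcr2, a membrane transporter related to a heme exporter, had 9.25, 8.68 and 8.22 in KI_CD livers and 7.08, 7.11 and 7.38 in WT_CD livers (1.53 ± 0.23 SE, adjusted p = 0.0393). In Acnat2, Slc13a5 and Flvcr2 every knock-in array was above every wild-type array. With 1 array left out Acnat2 missed the threshold in 7 cases (KI_CD replicates 2 and 3, all WT_CD replicates, KI_MR replicates 1 and 2; adjusted p 0.0536 to 0.211) and Flvcr2 in 8 (KI_CD replicate 2, all WT_CD replicates, KI_MR and WT_MR replicates 1 and 2; 0.0638 to 0.225). Slc13a5 missed it without WT_CD replicate 1 (0.113) or 2 (0.0668).

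Cyp2c39, a retinoic acid hydroxylase, had 8.01, 8.44 and 8.64 in KI_CD livers and 6.82, 7.13 and 6.75 in WT_CD livers (1.46 ± 0.18 SE, adjusted p = 0.0143). Of 13 measured Cyp2c genes it was the one called, and 9 lay above 0, with Cyp2c38 at 9.18, 10.54 and 10.71 in KI_CD livers and 8.44, 9.69 and 8.52 in WT_CD livers (1.26 ± 0.40 SE, adjusted p = 0.29). Ildr2, a membrane protein of the endoplasmic reticulum linked to hepatic lipid balance in mice, had 8.19, 8.87 and 9.12 in KI_CD livers and 7.43, 7.21 and 7.25 in WT_CD livers (1.43 ± 0.19 SE, adjusted p = 0.0186). Rbm3, an RNA-binding protein that is induced by cold and mild stress, had 11.20, 11.08 and 11.19 in KI_CD livers and 10.51, 10.48 and 10.34 in WT_CD livers (0.71 ± 0.08 SE, adjusted p = 0.00786). Its 2 other probe sets gave changes of 0.72 and 0.68. Without WT_CD replicate 1 the adjusted p was 0.0534 for Rbm3 and 0.105 for Cyp2c39, and for Ildr2 it was 0.0692 to 0.0948 when KI_CD replicate 2 or any WT_CD replicate was left out. The cold-inducible relative Cirbp had 8.70, 8.78 and 9.04 in KI_CD livers and 8.38, 8.28 and 8.18 in WT_CD livers (0.56 ± 0.17 SE, adjusted p = 0.28), while 11 of 13 members of the list that joins these with heat shock chaperones lay below 0.

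Among genes without overlap that missed the threshold at an unadjusted p under 0.05, the 8 largest differences above 0 were in Sult1e1, Mt2, Mt1, Atp6v0d2, Slc22a26, Slc16a5, Cyp4a14 and Cyp2b13. Mt2 had 12.94, 13.41 and 12.46 in KI_CD livers and 9.21, 9.70 and 12.44 in WT_CD livers (difference 2.49 ± 0.73, adjusted p = 0.25), and Mt1 had 11.95, 12.78 and 11.46 in KI_CD livers and 8.86, 9.36 and 11.20 in WT_CD livers (difference 2.26 ± 0.58, adjusted p = 0.19). For both metal-binding proteins WT_CD replicate 3 was close to the knock-in arrays. Cyp4a14, an omega-hydroxylase induced by the fatty acid receptor PPARA, was 12.77, 12.62 and 12.27 in KI_CD livers and 10.69, 10.46 and 11.61 in WT_CD livers (difference 1.63 ± 0.26, adjusted p = 0.0536). Sult1e1, the estrogen sulfotransferase, was 8.77, 4.39 and 6.66 in KI_CD livers and 4.09 on each WT_CD array (difference 2.52 ± 0.76, adjusted p = 0.27, or 1.44 without KI_CD replicate 1). With the wild-type arrays at their lower quartile and the knock-in arrays as measured, the mean was 2.003-fold higher. That value leans on KI_CD replicate 1, and KI_CD replicate 2 lay below its own lower quartile of 5.55. Atp6v0d2, a subunit of the vacuolar proton pump, had a difference of 2.15 ± 0.48, Slc22a26 one of 2.08 ± 0.62 (1.10 without KI_CD replicate 1) and Slc16a5, of the monocarboxylate transporter family, one of 1.71 ± 0.35. In Sult1e1, Slc22a26 and Slc16a5 KI_CD replicate 1 was the highest array.

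By the same rule the 8 largest differences below 0 were in Hsd3b5 and Slco1a1, given above, and in Nat8f5, Mup21, Cyp7b1, Moxd1, Sult2a8 and Susd4. Nat8f5, of the N-acetyltransferase family, had 5.46, 5.29 and 6.15 in KI_CD livers and 8.12, 7.46 and 8.74 in WT_CD livers (difference -2.47 ± 0.44, adjusted p = 0.068). Mup21, a major urinary protein, had 6.25, 7.74 and 8.08 in KI_CD livers and 9.89, 9.52 and 9.75 in WT_CD livers (difference -2.36 ± 0.46, adjusted p = 0.091). Of 21 listed major urinary proteins only 3 were measured. These 3 lay below 0 with no overlap, where 10.4% of all genes were lower without overlap. Their median was -0.82 (-0.43 without KI_CD replicate 1). Cyp7b1, the oxysterol hydroxylase of the alternative bile acid pathway, had 8.09, 10.09 and 10.22 in KI_CD livers and 11.78, 10.70 and 12.47 in WT_CD livers (difference -2.18 ± 0.53, adjusted p = 0.18). Moxd1 was at least 3.18-fold lower with its dim knock-in arrays at their lower quartile (adjusted p = 0.054), and the bile acid sulfotransferase Sult2a8 and Susd4 differed by -2.02 ± 0.73 and -1.73 ± 0.44. Without KI_CD replicate 1 these were -0.82 and -1.04.

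**Figure D3:**
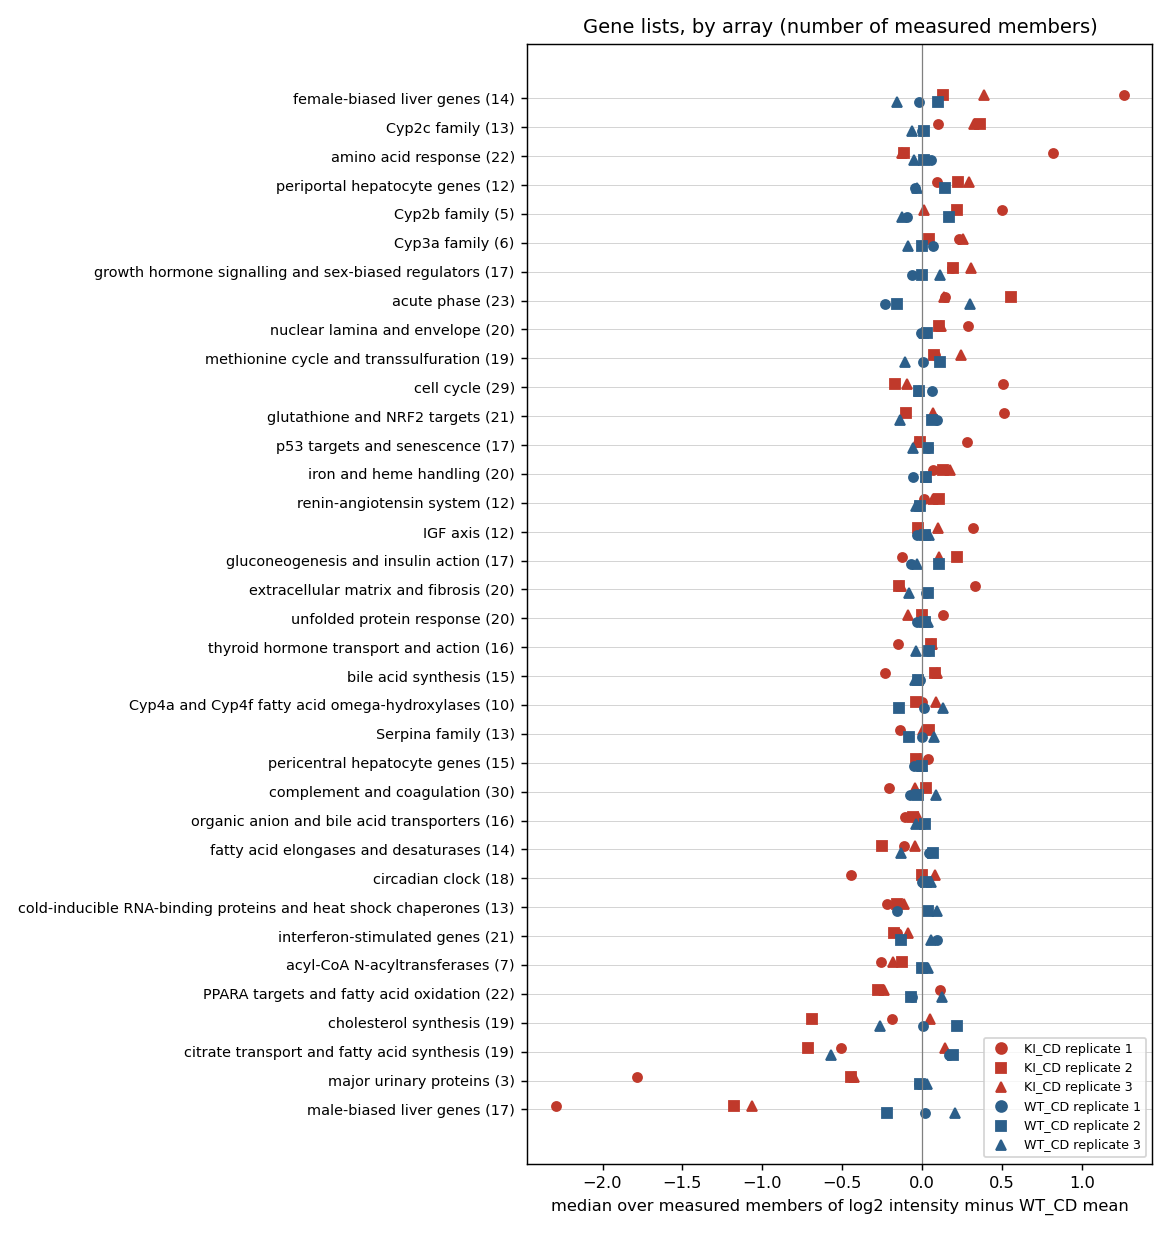
Median over the measured members of log2 intensity minus the WT_CD mean (x axis) for 36 gene lists, on each KI_CD (red) and WT_CD (blue) array, with the number of members in brackets. Symbols are replicates 1 (circle), 2 (square) and 3 (triangle). Male-biased genes are lowest on all 3 KI_CD arrays, and for the amino acid response and cell cycle lists the red circle of KI_CD replicate 1 stands away from the other 5 arrays.

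Lmna itself had 8.37, 7.84 and 7.79 in KI_CD livers and 7.39, 7.34 and 7.39 in WT_CD livers (difference 0.63 ± 0.13, adjusted p = 0.12; 0.45 without KI_CD replicate 1). Its probe set reads the gene as a whole and cannot tell lamin A from progerin, so it checks nothing about the labels. Of 20 genes of the nuclear lamina and envelope 18 lay above 0, with a median of 0.16 (0.094 without KI_CD replicate 1) and none past the threshold, and 8 were higher without overlap, as were 8.57% of all genes. The processing enzymes did not all move alike. Fnta, a farnesyltransferase subunit, differed by 0.36 ± 0.09. Rce1, the protease that trims the farnesylated end, differed by 0.26 ± 0.08 and Zmpste24 by 0.23 ± 0.09. Fntb and Icmt differed by 0.11 and 0.005 (-0.10 and -0.01 without KI_CD replicate 1).

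In cholesterol synthesis 17 of 19 measured genes lay below 0 with a median of -0.22, and none passed. With 1 array left out the median ranged from -0.48 to -0.085, and on single arrays it was -0.19, -0.69 and 0.05 in KI_CD and 0.00, 0.22 and -0.26 in WT_CD, so the groups overlapped. Sqle, squalene epoxidase, had 8.75, 7.55 and 8.46 in KI_CD livers and 9.28, 9.59 and 8.92 in WT_CD livers (difference -1.01 ± 0.33, adjusted p = 0.30). In the list of citrate transport and fatty acid synthesis 15 of 19 lay below 0 with a median of -0.41, or -0.72 to -0.20 with 1 array left out, against the rise of Slc13a5. The list's median on single arrays was -0.51, -0.72 and 0.14 in KI_CD and 0.17, 0.20 and -0.57 in WT_CD, again with overlap. Thrsp, a regulator of lipogenesis, had 8.40, 8.95 and 11.18 in KI_CD livers and 11.93, 11.56 and 10.89 in WT_CD livers (difference -1.95 ± 0.64, adjusted p = 0.31). In the list of PPARA targets and fatty acid oxidation 15 of 22 measured members lay below 0 and 7 above, without any call. Fabp1 and Ppara differed by -0.45 ± 0.12 and -0.35 ± 0.11. The largest difference in the list was above 0, that of Cyp4a14 (1.63), and Pdk4 differed by 1.01 (0.54 without KI_CD replicate 1). In bile acid synthesis none of 15 passed; Cyp7a1, the rate-limiting enzyme, differed by 0.27 ± 0.32 (0.11 without KI_CD replicate 1), and Cyp8b1, the sterol 12-alpha-hydroxylase, had 8.20, 8.84 and 8.48 in KI_CD livers and 10.74, 10.69 and 9.24 in WT_CD livers (difference -1.72 ± 0.61, adjusted p = 0.34).

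Several other lists had medians above 0 that KI_CD replicate 1 set. The amino acid response median was 0.23 and -0.047 without that array, p53 targets 0.14 and -0.006, glutathione and NRF2 targets 0.14 and -0.025, cell cycle genes 0.14 and -0.12, and extracellular matrix genes 0.042 and -0.13. The direction of these medians thus differed with 1 array, and no member of any of these lists passed the threshold. Nqo1, a quinone reductase that NRF2 induces, had 7.18, 5.88 and 6.62 in KI_CD livers and 5.64, 5.58 and 5.43 in WT_CD livers, at least 1.94-fold higher (adjusted p = 0.21). Of 17 measured p53 targets and senescence genes 12 lay above 0. Gadd45b, Btg2 and Trp53inp1 differed by 1.11, 0.85 and 0.79 (0.80, 0.61 and 0.67 without KI_CD replicate 1). The senescence marker Cdkn2a differed by -0.11 ± 0.07. In the methionine cycle and transsulfuration list 16 of 19 lay above 0 and the median was 0.15, or 0.20 without KI_CD replicate 1. Cth, the enzyme that makes cysteine from cystathionine, had 11.87, 12.19 and 12.20 in KI_CD livers and 11.33, 11.62 and 10.98 in WT_CD livers (difference 0.78 ± 0.15, adjusted p = 0.091).

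The same contrast on the restricted diet compared 6 other arrays, with the spread estimated over all 12 in the same fit, so its standard errors and calls draw on the control diet arrays too. There 94 genes passed, 0.471% of those tested, and 4 of the 16 were among them: Cyp4a12a, Cyp4a12b, Rbm3 and Acnat2. Of the 16 genes 15 had the same sign on both diets, where 69.9% of all genes did, and 11 had no overlap between KI_MR and WT_MR, where 16.3% of all genes had none. Cyp4a12a averaged 6.16 in KI_MR livers and 10.003 in WT_MR livers, with a difference of -3.85 ± 0.42 (SE, adjusted p = 0.00701). Acnat2 averaged 9.79 in KI_MR livers and 7.79 in WT_MR livers, with a difference of 2.0017 ± 0.29 (SE, adjusted p = 0.0222), and Rbm3 averaged 11.52 in KI_MR livers and 10.49 in WT_MR livers (difference 1.02 ± 0.08 SE, adjusted p = 0.000957). On the control diet the same genes stood at -3.81, 2.03 and 0.71, in that order. Some restricted-diet arrays had marker sums far from the rest. Skeletal muscle markers summed to 12835 units in KI_MR replicate 2, against 571 to 666 in KI_CD and 632 to 1204 in WT_CD. Cholangiocyte markers summed to 2105 units in KI_MR replicate 3, against 463 to 1289 in KI_CD. Both arrays enter the KI_MR values and the common spread, and their part in the results was not tested.

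For other genes the knock-in difference was smaller on the restricted diet. Cyp2b9 averaged 13.43 in KI_MR livers and 13.09 in WT_MR livers (difference 0.34 ± 0.47), Serpina7 11.24 in KI_MR livers and 11.05 in WT_MR livers (0.20 ± 0.24), and Serpina12 5.64 in KI_MR livers and 5.92 in WT_MR livers (-0.28 ± 0.24). Slc13a5 was the one gene whose sign differed, with 5.98 in KI_MR livers and 6.17 in WT_MR livers (-0.19 ± 0.14). The limma test of the difference between the diets gave unadjusted p-values under 0.05 for 11 of the 16. Among them were Serpina7 (2.1e-05), Slc13a5 (4.26e-05) and Cyp2b9 (4.41e-05). The 16 were chosen by their control diet difference, which is part of the value tested here. That choice favours small p-values, so the count of 11 is not evidence of a difference between diets. After adjustment over all genes 0 of 19938 passed by limma, with a smallest adjusted p of 0.293 and 824 genes at an unadjusted p under 0.05, so none of the 16 is shown to differ between diets. Male-biased genes had a median of -0.28 on the restricted diet, against -1.30 on the control diet, a gap that was not tested. Measured from the WT_CD mean, this list's median on single arrays was -1.94, -1.76 and -1.28 in WT_MR, below all WT_CD arrays. It was -2.36, -2.25 and -2.48 in KI_MR, against -2.29, -1.17 and -1.06 in KI_CD. Wild-type medians were therefore lower on the restricted diet, while KI_MR medians lay below those of KI_CD or level with KI_CD replicate 1. What set the gap was not tested.

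**Figure D4:**
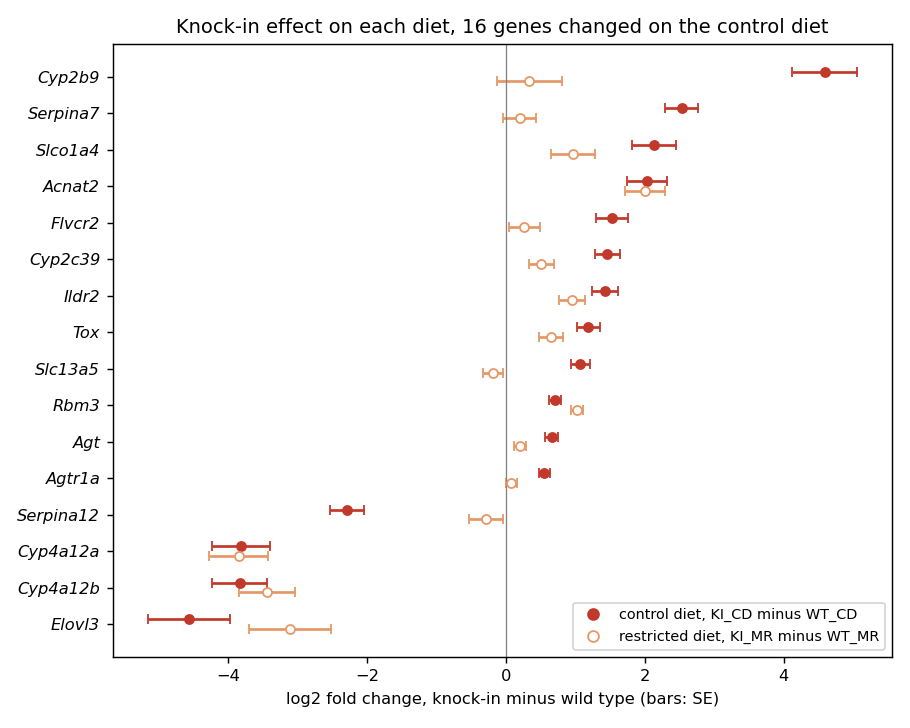
Log2 fold change, knock-in minus wild type, ± SE (x axis) for the 16 genes changed on the control diet. Filled red points are KI_CD minus WT_CD and open orange points are KI_MR minus WT_MR. Both points lie on the same side of 0 for 15 genes, and Slc13a5 (1.07 against -0.19) is the exception.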

How the data were processed

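The authors deposited whole-number linear intensity values of 35512 probe sets on 12 arrays. The way background was corrected and arrays were scaled was not given in the sources used here. Probe sets with 1 gene symbol (21789) were reduced to the one with the highest mean per gene, which gave 19938 genes. The log2 of the values, with no further scaling, was fitted in limma 3.58.1 (R 4.3.3) as 4 group means over 12 arrays, with empirical Bayes moderation (8 residual and 3.14 prior degrees of freedom). Tests were two-sided at an adjusted p of 0.05. An exact permutation test was not used, since 3 against 3 arrays cannot reach that threshold. A bound on a dim gene takes each array of the lower group at the higher of its value and its lower quartile (5.49 to 5.67), and the higher group as measured. Deposited values under 32 units (13.98% of gene values) are coarse, with steps of 0.0444 log2 at 32 units. Arrays give no counting depth, and their number limits the precision.

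The genes, the 36 pathway and 13 cell type lists and the tests were chosen with earlier results of these data known. Named were all genes past the threshold, the 8 largest uncalled differences each way with no overlap and an unadjusted p under 0.05 (predicted loci left out), up to 4 members per list by unadjusted p, and a fixed set. Alas2, Cyp2d9, Gstp1, Cyp17a1, Prom1, Saa2, Lcn2, Socs2 and Cish were named after their values were seen. Same-numbered KI_CD and WT_CD arrays correlated in their deviations at 0.231, 0.015 and 0.104, so the numbers were not taken as pairs. On simulated data the fit recovered 56.0% of changes of 0.5, 94.7% of 1 and 100% of 2 (log2, 19938 genes), with 25 false calls over 3 runs. Each run had 200 changed genes, more than the 16 called here, which eases the adjusted threshold. The simulated noise was independent and of the same size on every array. The real arrays were unequal, with weights of 0.291 (WT_MR replicate 3) to 16.7 (WT_MR replicate 1). The recovered shares therefore need not hold for the real data, in which 94 genes differed by over 1 log2 unit. Promoter windows came from RefSeq. Figures used matplotlib 3.10.9.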

Additional observations from a re-analysis of the deposited data

Results flagged for a closer look

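Probe sets that carry no gene symbol, or several, stayed outside the comparison, and 9 of these 13723 passed in a limma fit of their own (0.0656%), with 829 at an unadjusted p under 0.05. Of the 9, 3 were higher and 6 lower in knock-in livers on the control diet, with log2 changes from -3.46 to 1.55. The probe sets with several symbols gave 3 of them, all lower, out of 1621, and those with none gave 6 out of 12102. They were singled out because they are signal that no named gene reports, and no gene is assigned to them here.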

How the results depend on the processing

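The count of 16 changed genes (12 higher, 4 lower) depended on the setting. It was 31 (21 higher, 10 lower) without the dimmest 25% of genes, 26 (20 higher) with an intensity trend and robust estimation, 168 (134 higher, 34 lower) with array weights and 138 (112 higher, 26 lower) with gene-by-gene weights, chosen after seeing the data, as the plain weights gave WT_MR replicate 1 a weight of 16.7. A fit of only the 6 compared arrays called 0 (0 higher, 0 lower) by limma, with 2734 at an unadjusted p under 0.05. It was 14 with quantile normalization (13 of the 16 among them), 20 with median centring, 24 without the dimmest 50%, 16 with the mean of a gene's probe sets and 16 with a pseudocount of 16 (13 of the 16). With replicate number as a block it was 19, with 12 of the 16 among them. Leaving out each array gave 2 to 32 genes, 2 to 24 higher and 0 to 8 lower. The arrays that moved it by over 1.5 times were KI_CD replicate 1 (32), WT_CD replicate 1 (2), KI_MR replicate 1 (10) and WT_MR replicate 3 (28); without WT_CD replicate 3, 7 were lower. The cause was not tested. Quantile normalization ended the calls of Slco1a4, Flvcr2 and Tox, the pseudocount those of Slco1a4, Flvcr2 and Acnat2, the block those of Slco1a4, Flvcr2, Tox and Agt, and the trend that of Elovl3. Cyp2b9 and Serpina7 passed with any single array left out. Slco1a4 was lost in 9 of the 12 cases, Flvcr2 in 8, Acnat2 and Tox in 7, Agt and Agtr1a in 6, Ildr2 in 4, Slc13a5 and Elovl3 in 2 and each of the other 5 in 1. Of 3422 values of 150 named genes under 23 alternatives, 3293 kept direction and side of the threshold, 83 lost a call and 42 gained one. The 4 that changed sign were all Igf1, -0.03 as reported: 0.02 with array weights (0.0189) and gene-by-gene weights (0.0185), and, with 1 array left out, -0.0905 to 0.037, above 0 without KI_CD replicate 1 (0.037) or WT_CD replicate 3 (0.0173).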

Other observations

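Acute-phase genes, secreted by hepatocytes during inflammation, varied widely within the wild-type group. Saa2, a serum amyloid A gene, had 9.93, 11.11 and 8.19 in KI_CD livers and 8.16, 8.05 and 13.27 in WT_CD livers, and Lcn2, lipocalin 2, had 12.27, 12.61 and 11.23 in KI_CD livers and 8.75, 8.94 and 12.72 in WT_CD livers. WT_CD replicate 3 was the highest of the 6 arrays for both. The list's median on single arrays was 0.14, 0.55 and 0.14 in KI_CD and -0.23, -0.16 and 0.30 in WT_CD, measured from the WT_CD mean. None of its 23 measured members passed the threshold, and 17 lay above 0. Stat3, the transcription factor that drives the response, had 10.99, 11.18 and 10.87 in KI_CD livers and 10.19, 10.53 and 10.40 in WT_CD livers (difference 0.64 ± 0.18 SE, adjusted p = 0.22).

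Zonation genes gave no call. Of 12 measured periportal genes 10 lay above 0 with a median of 0.22, and of 15 pericentral genes 6 lay above 0 with a median of -0.022 (-0.006 without KI_CD replicate 1). Lgr5, a WNT-dependent gene of the pericentral zone, had 8.08, 8.11 and 8.37 in KI_CD livers and 7.31, 7.72 and 7.55 in WT_CD livers (difference 0.66 ± 0.14 SE, adjusted p = 0.11), and Cyp1a2 had 11.06, 11.96 and 12.19 in KI_CD livers and 12.48, 12.58 and 12.69 in WT_CD livers (difference -0.85 ± 0.25 SE, adjusted p = 0.25; -0.51 without KI_CD replicate 1). In iron and heme handling 17 of 20 lay above 0 and 1 rose (Flvcr2). Slc39a14, a zinc and iron importer, had 11.13, 11.57 and 11.31 in KI_CD livers and 10.44, 10.67 and 10.83 in WT_CD livers (difference 0.69 ± 0.13 SE, adjusted p = 0.081). Interferon-stimulated genes had 14 of 21 below 0, and 16 of 30 complement and coagulation genes lay below 0, none of them past the threshold.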
